A study of Rattus norvegicus with 6 samples.

Results

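Acaa2 encodes a thiolase of the last step in a round of mitochondrial fatty acid oxidation. Its mRNA in the hippocampus of Fmr1 KO rats was set here against that of the other enzymes of the same pathway. The 10 genes examined were Acaa2, Hadha, Hadhb, Acadm, Acadl, Acads, Acadvl, Cpt1a, Cpt2 and Echs1, out of 17455 genes in the deposited table, and all 10 were found there by symbol. Acaa2 was chosen by its measured values, as 1 of the genes called between KO and WT rats in this same comparison, and the other 9 were named for their place in the pathway. The difference between KO and WT rats in these 10 genes is therefore given as a description, and where members past a threshold are counted, nothing is read from the count. The data comprised 6 libraries of hippocampal RNA, 1 per rat, 3 from WT and 3 from Fmr1 KO males on a Long Evans background (LE-Fmr1em2Mcwi), aged 10 weeks, with no treatment named. The Fmr1 mutation is carried in the germline and is not restricted to a cell type. According to the methods, transcriptomics used 1 litter per group. If that means 1 litter per genotype, litter and genotype cannot be told apart.

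Mitochondrial beta oxidation shortens fatty acids 2 carbons at a time. A carnitine shuttle carries the acyl group across the mitochondrial membranes, acyl-CoA dehydrogenases, a hydratase and a second dehydrogenase act on it in turn, and a thiolase cleaves off acetyl-CoA. In the brain, which burns mainly glucose, the pathway is known to be most active in astrocytes.

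Between 9619812 and 13390476 reads per library fell in genes, and 11800 genes had enough counts to be tested. WT replicate 3 stood apart from the other WT libraries. On the first principal component (28.8% of the variance) it scored 6.20, within the range of the KO libraries (5.49 to 11.0), whereas the other WT libraries scored -19.6 and -12.4. On the second component (21.7%) KO replicate 3 stood apart, at 20.1 against -12.8 to 1.91 for the other libraries. Fmr1, the targeted gene, had 47.6, 50.6 and 51.6 CPM (gene counts scaled to the library total with TMM factors) in WT replicates 1, 2 and 3 and 17.4, 13.1 and 11.6 CPM in the KO replicates, so the libraries matched their labels. Among genes that mark hippocampal fields, Prox1 of dentate granule cells averaged 33.3 ± 3.59 CPM over WT and 34.6 ± 3.80 CPM over KO libraries (SD, n = 3 for both). Wfs1 of CA1 had 435 ± 71.3 and 393 ± 34.9 CPM. Both were named after their values were seen, from 9 tested field markers. Of the 9, Mpped1 and Bok were lower and 0 were higher at an unadjusted p under 0.05 in edgeR. Over all genes tested, 5.15% were lower and 4.19% higher.

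The thiolase Acaa2 had 25.6, 33.0 and 29.8 CPM in WT replicates 1, 2 and 3 and 16.3, 15.8 and 15.2 CPM in KO replicates 1, 2 and 3. The groups did not overlap, and the KO libraries were close together. The WT mean was 29.5 ± 3.69 CPM and the KO mean 15.8 ± 0.530 CPM (SD, n = 3 for both), a level 1.87-fold lower in KO rats. The log2 fold change of KO over WT was -0.90 (SE 0.11). These values rested on 294, 423 and 362 reads in WT and 176, 214 and 146 reads in KO libraries. The spread around the mean was 12.5% in WT and 3.36% in KO rats. In edgeR's quasi-likelihood test with Benjamini-Hochberg adjustment over all genes tested, 3 genes or 0.0254% passed an adjusted p of 0.05, the value by which Acaa2 was chosen, and nothing is read from its place among them. This count was 37 in DESeq2. Leaving out WT replicate 3 made it 256 and leaving out WT replicate 1 made it 7, whereas it was 11 when KO replicate 2 and 1 when KO replicate 1 was dropped. Just inside this threshold, with the larger p, was RGD1359290 (adjusted p = 0.00803 from edgeR), and just outside it was Dlgap3 (adjusted p = 0.0642 from edgeR). The log2 fold change of Acaa2 lay between -0.99 and -0.81 when any 1 library was left out, but without KO replicate 1 or without KO replicate 3 the gene would not have met the threshold by which it was chosen. The tissue is bulk, so fewer cells that express Acaa2 and less Acaa2 RNA per cell cannot be told apart.

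**Figure D1:**
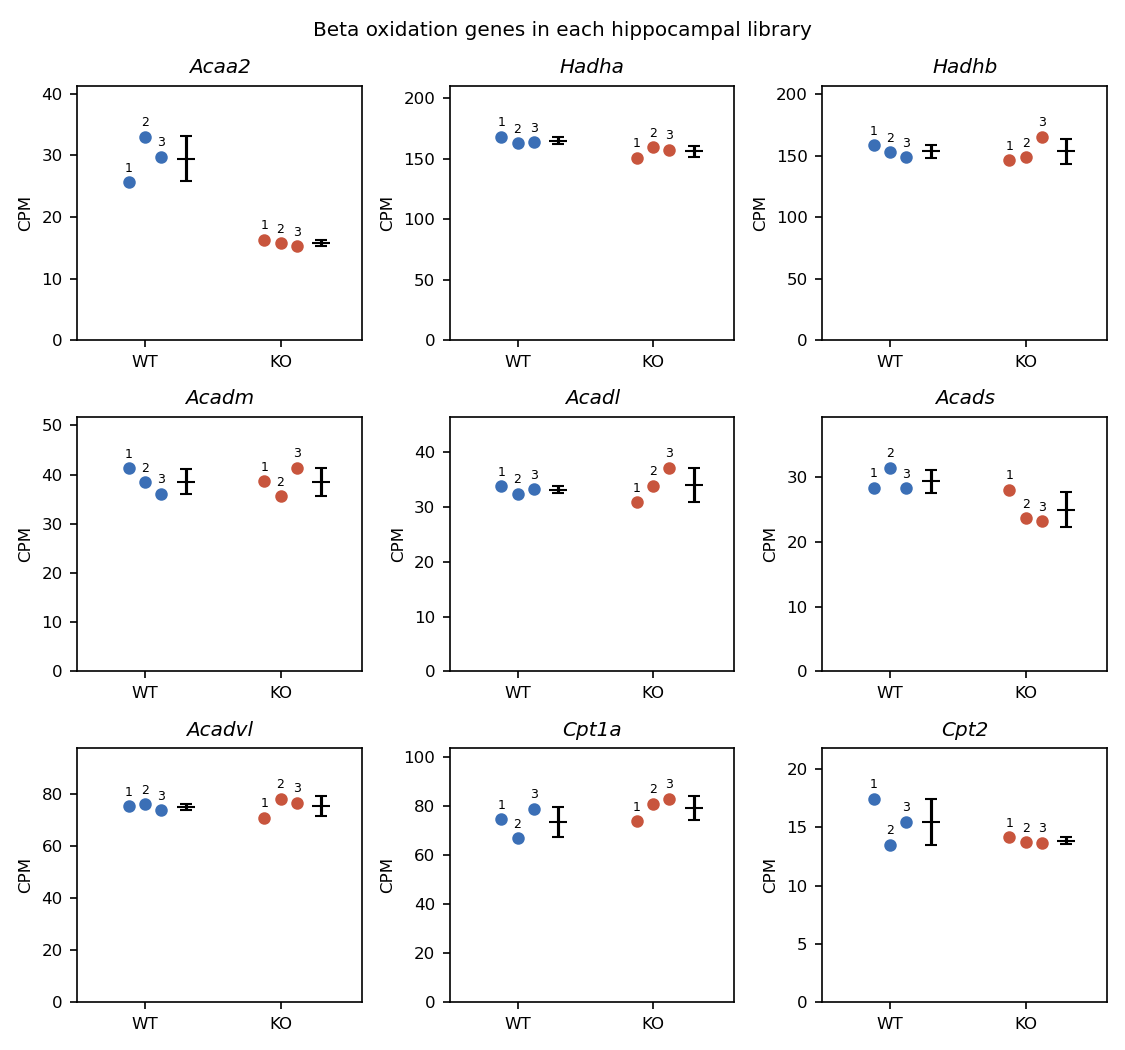
Level in CPM of the 9 beta oxidation genes with enough counts, in each library. Points are libraries numbered by replicate, WT in blue and KO in red, and the black bars give the mean ± SD of 3 libraries. Acaa2 had 25.6 to 33.0 CPM in WT and 15.2 to 16.3 CPM in KO libraries, whereas the groups overlapped in all other genes but Hadha and Acads.

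The other tested enzymes of the pathway lay near their WT levels. Of the 10 genes, 9 passed the filter on low counts, and the remaining one, Echs1, is described further on. Over the 8 tested genes other than Acaa2, log2 fold changes ran from -0.24 to 0.11 (SE 0.06 to 0.12), 4 below 0 and 4 above, with a median of 0.00, beside 0.00 over all genes tested. This even split rested on single libraries, being 7 below and 1 above without KO replicate 3 (median -0.06) and 6 below and 2 above without WT replicate 3 (median -0.04). Their 95% intervals reached at most from -0.46 to 0.28. Where the unadjusted p of edgeR had to be under 0.05, 1 of the 8 (Acads) was lower and 0 were higher, and Acads too was lost in DESeq2 and without WT replicate 2, KO replicate 2 or KO replicate 3. Over all genes, 5.15% were lower and 4.19% higher by the same rule. All KO libraries were below all WT libraries in 3 of the 9 tested genes, Acaa2, Hadha and Acads, and above them in 0. Over all genes tested, the KO libraries lay below in 7.52% and above in 7.19%.

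Hadha and Hadhb encode the subunits of the trifunctional protein, which holds the hydratase and long-chain 3-hydroxyacyl-CoA dehydrogenase activities on the alpha and a thiolase on the beta subunit. Hadhb thus does for long chains what Acaa2 does for shorter ones. It had 159, 153 and 149 CPM in WT replicates 1, 2 and 3 and 146, 149 and 165 CPM in KO replicates 1, 2 and 3. The groups overlapped, with KO replicate 3 the highest of all 6 libraries, and the log2 fold change was 0.00 (SE 0.07). Hadha had 168, 163 and 164 CPM in WT and 151, 160 and 157 CPM in KO libraries, a log2 fold change of -0.08 (SE 0.06). The KO libraries lay below the WT libraries by a small margin.

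The genes for these subunits lie head to head on chromosome 6, so that their promoter windows overlap. The 200 bases that both windows share (GRCr8 assembly, RefSeq, chr6:31907551-31907750, plus strand, reading towards Hadha) are shown because both transcripts start from around this stretch, with the GC box (GGGCGG, or its complement) in capitals.

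Hadha and Hadhb shared window: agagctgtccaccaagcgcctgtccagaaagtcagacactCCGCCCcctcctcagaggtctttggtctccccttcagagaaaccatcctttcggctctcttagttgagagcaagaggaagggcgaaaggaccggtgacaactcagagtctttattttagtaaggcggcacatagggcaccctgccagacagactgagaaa

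The ratio of Hadha to Hadhb reads was 1.06, 1.07 and 1.10 in WT replicates 1, 2 and 3 and 1.03, 1.07 and 0.953 in KO replicates 1, 2 and 3. It thus moved little between libraries, with KO replicate 3 lowest. Each gene alone also varied little, so a steady ratio does not show that they moved together. Their log2 CPM correlated at 0.29 over the 6 libraries, against 0.84 for Hadhb with Acadl. RefSeq promoter windows were matched for 8 of the 10 genes, all but Acaa2 and Acadl. The GC box occurred on either strand in 6 of these 8 windows and in 33.1% of all 33469 windows of the same length, where the 1 in the stretch above counts for both Hadha and Hadhb. AGGTCA, the core motif of PPAR and other nuclear receptors, occurred in 3 of 8 (Echs1, Hadhb and Acadvl) and in 16.2% of all windows. The extended site of estrogen-related receptors, TNAAGGTCA, which contains that core, occurred in 0 of 8 and in 1.20% of all windows. The CCAAT motif occurred in 2 of 8 (Hadha and Acads) and in 37.5% of all windows.

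The acyl-CoA dehydrogenases catalyse the first step, each for its own range of chain lengths. Acadvl, for very long chains, had 75.3, 76.2 and 73.7 CPM in WT and 70.9, 78.1 and 76.6 CPM in KO libraries (log2 fold change 0.00, SE 0.07). Acadl, for long chains, had 33.7, 32.4 and 33.2 CPM in WT and 30.9, 33.8 and 37.1 CPM in KO libraries (log2 fold change 0.03, SE 0.09). Acadm, for medium chains, had 41.2, 38.4 and 36.1 CPM in WT and 38.6, 35.7 and 41.4 CPM in KO libraries (log2 fold change 0.00, SE 0.09). In all of them the WT range overlapped the KO range, and in Acadl the KO libraries were spread more widely (9.17% of the mean) than the WT libraries (2.08%).

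Acads, for short chains, was alone among these dehydrogenases in having every KO library below every WT library. It had 28.3, 31.4 and 28.3 CPM in WT replicates 1, 2 and 3 and 28.0, 23.6 and 23.2 CPM in KO replicates 1, 2 and 3. KO replicate 1 lay within 1 CPM of the lowest WT library, and the others lay well below. The log2 fold change was -0.24 (SE 0.10).

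Entry into the mitochondrion depends on the carnitine palmitoyltransferases. Cpt1a, the outer membrane enzyme that malonyl-CoA inhibits, had 74.5, 66.9 and 78.8 CPM in WT and 73.7, 80.8 and 82.8 CPM in KO libraries (log2 fold change 0.11, SE 0.08). Cpt2, the inner membrane enzyme, had 17.4, 13.5 and 15.5 CPM in WT and 14.2, 13.7 and 13.7 CPM in KO libraries (log2 fold change -0.16, SE 0.12). The groups overlapped in both genes. In Cpt2, as in Acaa2, the KO libraries were closer together (1.97% of the mean) than the WT libraries (12.7%).

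Echs1, the hydratase of short chains, had 2, 2 and 4 reads in WT replicates 1, 2 and 3 and 1, 1 and 3 reads in KO replicates 1, 2 and 3, under the filter on low counts, so no fold change is given. Whether the annotation used for counting covers the gene was not tested, so these reads need not reflect its level. In the GRCr8 annotation 0 other genes overlap it.

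**Figure D2:**
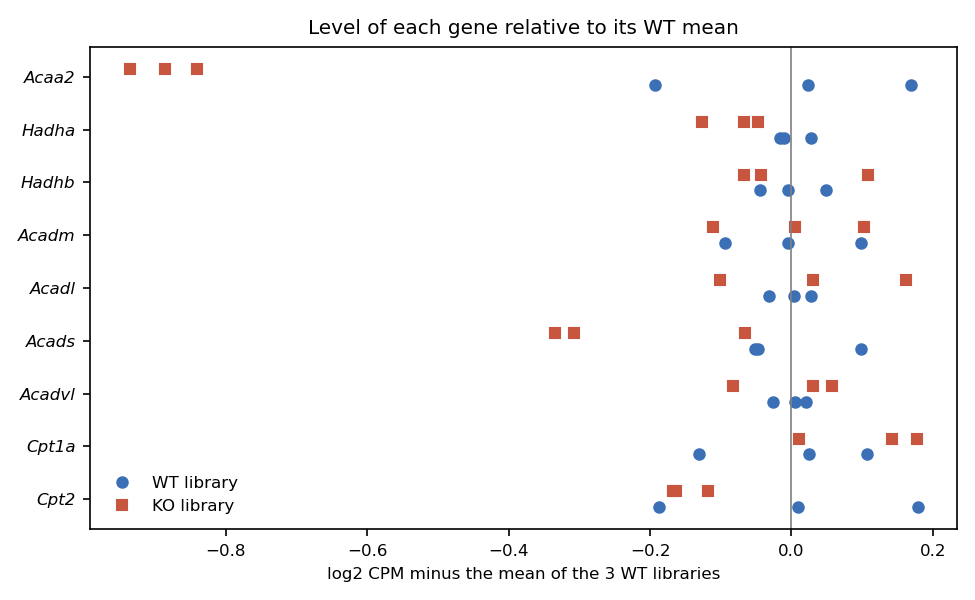
Log2 CPM of each beta oxidation gene in each library minus the mean of the 3 WT libraries. Blue circles are WT and red squares KO libraries. The KO libraries of Acaa2 lie at -0.84 to -0.94, and the lowest library of any other gene is KO replicate 3 of Acads at -0.33.

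Acaa2 was also compared with the other enzymes within each library, which removes the scaling between libraries. The level of Acaa2 was 45.6%, 61.8% and 55.1% of the geometric mean CPM of the 8 other tested genes in WT replicates 1, 2 and 3, and 31.5%, 30.2% and 28.1% in KO replicates 1, 2 and 3. These percentages depend on gene length and compare only libraries with each other. No KO library reached the lowest WT library. On the log2 scale the ratio was -0.90 ± 0.22 in WT and -1.74 ± 0.08 in KO rats (SD, n = 3 each), a difference of -0.85. The mean log2 CPM of the 8 genes was 5.78 ± 0.04 in WT and 5.74 ± 0.04 in KO rats, a difference of -0.04.

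Across the 6 libraries, Pearson correlations of log2 CPM with Acaa2 were 0.83 for Acads, 0.72 for Hadha and 0.38 for Cpt2. They were -0.11 for Hadhb and Acadm, -0.04 for Acadvl, -0.29 for Acadl and -0.64 for Cpt1a. Among pairs of the other genes, Hadhb went most closely with Acadl (0.84) and Acads most inversely with Cpt1a (-0.89). These are descriptions over 6 libraries that share genotype and scaling. The 5 tested genes most like Acaa2 by this measure were the postsynaptic scaffold gene Dlgap3 (0.985), the ubiquitin ligase subunit gene Fbxw11 (0.981), the rRNA methyltransferase gene Nsun5 (0.979), the mechanosensitive channel gene Tmem63a (0.978) and Gas8 (0.978), a component of motile cilia. In each of these 5 the groups did not overlap and the KO libraries were the lower ones, against 7.52% of all genes tested. This follows largely from picking them for likeness to Acaa2, whose KO libraries were the lower ones, and nothing is read from it. In the order named, the log2 fold changes of the 5 genes were -0.38 (SE 0.06), -0.07 (SE 0.06), -0.14 (SE 0.10), -0.36 (SE 0.10) and -0.18 (SE 0.11).

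The rest of fatty acid metabolism was described from 6 lists of other enzymes, transporters and regulators, with 84 genes beyond the 10 above. Of these, 81 were in the table and 76 were tested. By the unadjusted edgeR threshold used above, 7 were lower (9.21% of 76, against 5.15% of all genes) and 2 were higher (2.63%, against 4.19%). The median log2 fold change was -0.02, against 0.00 over all genes, and 44 of 76 were negative. None of the 76 passed an adjusted p of 0.05 in edgeR, where the smallest was 0.268 for Ucp2, and DESeq2 passed 0 as well. The count of 9 rested on single libraries. It was 14 if WT replicate 3 and 5 if WT replicate 2 was left out, and it was 4 if KO replicate 2 and 3 if KO replicate 1 was. The lean towards lower genes was lost in some of these, with 7 lower and 7 higher if WT replicate 3 and 2 lower and 2 higher if KO replicate 2 was left out.

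**Figure D3:**
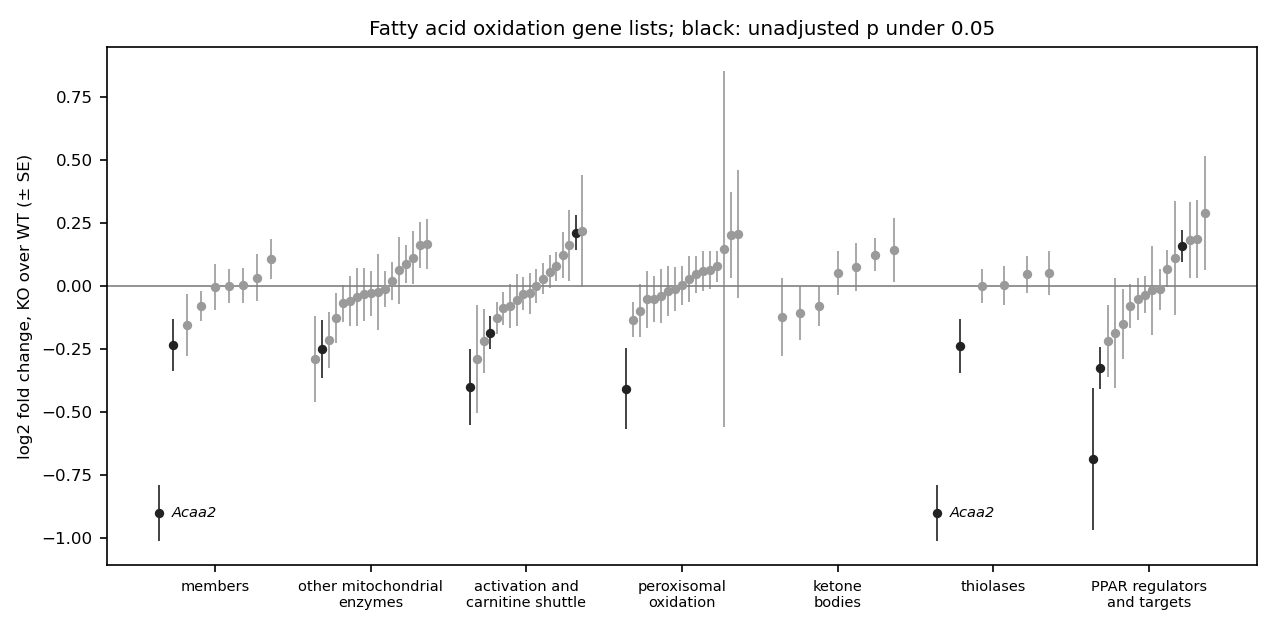
Log2 fold change of KO over WT with its SE for each tested gene of the fatty acid lists, ordered within each list. Black points have an unadjusted p under 0.05 in edgeR. Acaa2, at -0.90 in both lists that hold it, is the lowest, and the next lowest is Acot1 at -0.69.

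Among the thiolases, which share the fold and reaction of Acaa2, the cytosolic Acat2, which starts sterol synthesis, had 23.1, 25.1 and 23.8 CPM in WT and 19.1, 19.2 and 23.0 CPM in KO libraries. The groups did not overlap, and the log2 fold change was -0.24 (SE 0.11, unadjusted p = 0.0412 and adjusted p = 0.515 from edgeR). The log2 fold change was 0.05 (SE 0.09) for the mitochondrial acetoacetyl-CoA thiolase Acat1, 0.00 (SE 0.08) for the peroxisomal Acaa1a and, for Scp2 of peroxisomal branched chain oxidation, 0.05 (SE 0.07). Acaa1b had 5 to 14 reads per library and was not tested. Thus 2 of 6 tested thiolases, Acaa2 itself among them, were lower at an unadjusted p under 0.05, against 5.15% of all genes, a count that includes the gene chosen for its p, and the remaining 4, with Hadhb counted among them, had log2 fold changes of 0.00 to 0.05.

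Of 17 tested genes among the other mitochondrial enzymes and electron acceptors, 1 passed that threshold as lower and 0 as higher. Over all genes, 5.15% were lower and 4.19% higher. The gene of this list that passed was Hadh, the 3-hydroxyacyl-CoA dehydrogenase just before Acaa2 in the cycle. It had 18.6, 18.6 and 15.9 CPM in WT and 14.4, 14.6 and 15.7 CPM in KO libraries. The groups were separated by less than 1 CPM, and the log2 fold change was -0.25 (SE 0.11, adjusted p = 0.522 from edgeR). The isomerase Eci1, which prepares unsaturated fatty acids, differed by -0.21 on the log2 scale (SE 0.11), the propionyl-CoA carboxylase subunit Pcca by 0.16 (SE 0.09) and the branched chain dehydrogenase Acadsb by 0.17 (SE 0.10). None of these 3 passed. The electron transfer flavoprotein takes up the electrons of the acyl-CoA dehydrogenases. Its subunit genes had log2 fold changes of -0.07 (SE 0.07) for Etfa and -0.29 (SE 0.17) for Etfb, and its oxidoreductase Etfdh had 0.09 (SE 0.08).

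In fatty acid activation and the carnitine shuttle, 2 of 18 genes were lower (11.1%, against 5.15% of all genes) and 1 was higher (5.56%, against 4.19%). Acsl3, an acyl-CoA synthetase of the endoplasmic reticulum and lipid droplets, had 349, 325 and 352 CPM in WT and 379, 372 and 436 CPM in KO libraries, without overlap (log2 fold change 0.21, SE 0.07, adjusted p = 0.370 from edgeR). Cpt1c, the neuronal relative of Cpt1a with little transferase activity, had 125, 141 and 130 CPM in WT and 119, 114 and 115 CPM in KO libraries, also without overlap (log2 fold change -0.19, SE 0.07, adjusted p = 0.406). The brain fatty acid binding protein gene Fabp7 differed by -0.40 on the log2 scale (SE 0.15, adjusted p = 0.474), but WT replicate 3, at 69.5 CPM, lay among the KO libraries (66.4 to 74.1 CPM). The fatty acid transporter Slc27a1 did not pass (log2 fold change -0.13, SE 0.06), and the carnitine carrier Slc25a20 had -0.03 (SE 0.08).

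Peroxisomal oxidation and ketone body metabolism held 1 gene past that threshold among 17 and 7 tested. Over all genes, 5.15% were lower and 4.19% higher. Pex7, the import receptor for peroxisomal enzymes such as thiolase, had 10.7, 9.13 and 11.4 CPM in WT and 6.86, 7.53 and 9.29 CPM in KO libraries (log2 fold change -0.41, SE 0.16, adjusted p = 0.460 from edgeR), with KO replicate 3 above WT replicate 2. For the multifunctional enzyme Hsd17b4 the log2 fold change was -0.13 (SE 0.07), for the transporter Abcd3 0.08 (SE 0.06) and for Decr2 0.20 (SE 0.17). In ketone body metabolism the log2 fold change was 0.12 (SE 0.07) for Oxct1, which activates acetoacetate for use, and -0.08 (SE 0.08) for the monocarboxylate transporter Slc16a1. None of the 7 tested genes of that list passed.

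Of 16 tested regulators and targets of PPAR and PGC-1, the transcriptional control of fatty acid oxidation, 2 were lower and 1 was higher. These were 12.5% and 6.25% of the list, against 5.15% and 4.19% of all genes. Ucp2, a mitochondrial carrier and PPAR target, had 58.7, 51.9 and 50.9 CPM in WT and 42.7, 41.1 and 45.2 CPM in KO libraries, without overlap (log2 fold change -0.32, SE 0.08, adjusted p = 0.268 from edgeR). Acot1, an acyl-CoA thioesterase, had 2.87 ± 0.352 and 1.81 ± 0.512 CPM (log2 fold change -0.69, SE 0.28, adjusted p = 0.474), and the corepressor Ncor1 had 0.16 (SE 0.06, adjusted p = 0.466). The secreted lipase inhibitor Angptl4 did not pass (log2 fold change -0.22, SE 0.14), nor did the receptor genes Ppara (-0.19, SE 0.22) and Ppard (-0.05, SE 0.08), the coactivator Ppargc1a (0.18, SE 0.15), Esrra (-0.04, SE 0.07) or Pdk4 (0.11, SE 0.23). Pparg, Vnn1 and Cd36 had 0 to 4 reads per library and were not tested.

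The genes beside Acaa2 on chromosome 18 were examined next, in the gene order of the GRCr8 annotation, in which 0 genes overlap Acaa2. Of the 5 nearest tested genes on either side, 1 was lower and 1 was higher by that threshold, against 5.15% and 4.19% of all genes. Both directions had already been seen in earlier results of these data. Myo5b, the nearest tested gene on one side and a motor of recycling endosomes, had 86.8, 86.8 and 89.7 CPM in WT replicates 1, 2 and 3 and 71.3, 78.8 and 75.9 CPM in KO replicates 1, 2 and 3. The groups did not overlap, and the log2 fold change was -0.22 (SE 0.07, unadjusted p = 0.00612 and adjusted p = 0.341 from edgeR).

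Rpl17, a protein of the large ribosomal subunit and the nearest tested gene on the other side, differed in the opposite direction. In the GRCr8 annotation Rpl17 lies 208 kb from Acaa2, whereas Myo5b lies 6.39 kb from it. Rpl17 had 222, 137 and 184 CPM in WT and 258, 260 and 277 CPM in KO libraries, a log2 fold change of 0.55 (SE 0.17, unadjusted p = 0.0165 and adjusted p = 0.435 from edgeR). Without WT replicate 3 its unadjusted p was 0.0870. Here too the WT libraries were spread widely and the KO libraries narrowly. The order of the WT libraries was the reverse of that of Acaa2, with replicate 2 lowest in Rpl17 and highest in Acaa2. Over the 6 libraries, the correlation of log2 CPM with Acaa2 was -0.92 for Rpl17 and 0.89 for Myo5b.

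RGD1359290, annotated as a pseudogene of Rpl17 on chromosome 10, was with Fmr1 and Acaa2 the only gene called at an adjusted p under 0.05. It had 24.7, 41.7 and 22.1 CPM in WT and 1.11, 1.85 and 1.46 CPM in KO libraries, and WT replicate 2 was again the highest. Its correlation with Acaa2 was 0.98, rank 8 from the highest among the genes tested. A gene and its pseudogene may share reads, and the sequences of Rpl17 and RGD1359290 were not compared here, so the value of either is uncertain. The 8 other neighbours had log2 fold changes between -0.12 and 0.15. Mbd1, at 0.15 (SE 0.08), had every KO library above and Smad7, at -0.12 (SE 0.09), every KO library below every WT library, and neither passed. With Myo5b and Rpl17 included, the KO libraries lay below in 2 of the 10 neighbours and above in 2. Over all genes tested they lay below in 7.52% and above in 7.19%, and nothing is read from these counts. For Me2, Mapk4, Cxxc1, RGD1562987, Dym and Ctif the groups overlapped.

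**Figure D4:**
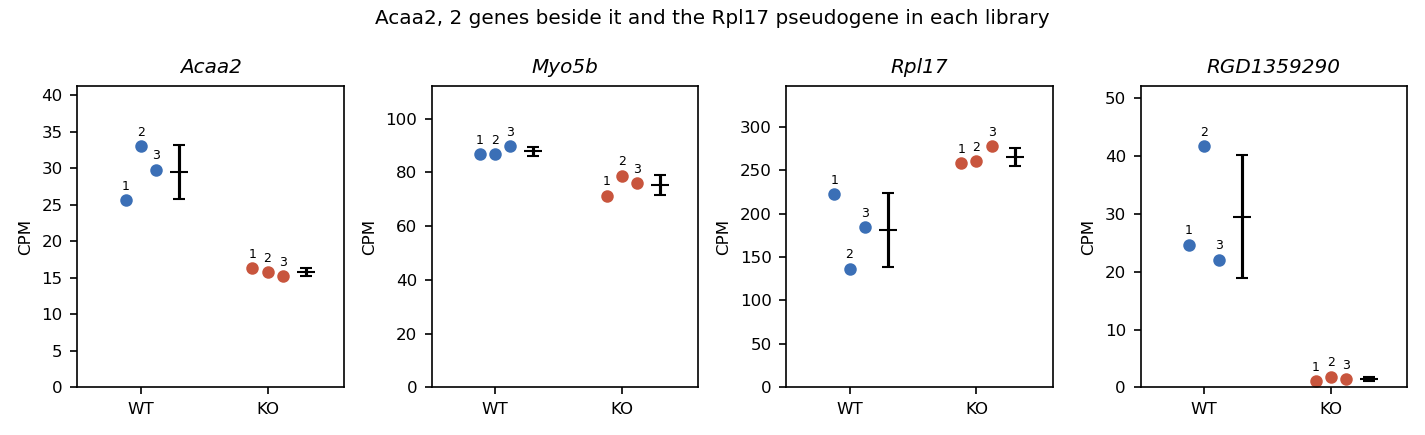
Level in CPM of Acaa2, its neighbours Myo5b and Rpl17 on chromosome 18 and the Rpl17 pseudogene RGD1359290 in each library. Points are libraries numbered by replicate and black bars the mean ± SD of 3 libraries. Acaa2, Myo5b and RGD1359290 are lower and Rpl17 is higher in every KO library than in every WT library.

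Cell type markers that moved with genotype are given beside these results. Over all genes tested, 5.15% were lower and 4.19% higher by the unadjusted edgeR threshold. Of 11 tested oligodendrocyte markers, 5 were lower and 0 higher by the unadjusted edgeR threshold, and their summed level was 13279 to 14035 CPM in WT and 10499 to 12009 CPM in KO libraries. Of 12 astrocyte markers, 0 were lower and 3 were higher (Aqp4, Gjb6 and Slc4a4), and the sum was 8147 to 9188 CPM in WT and 8852 to 10144 CPM in KO libraries. Of 10 microglial markers 1 was lower, of 9 endothelial and mural markers 1 was lower and 1 higher, and of 10 neuronal markers 0 passed. Of 6 tested markers of choroid plexus and ependyma, 1 was lower, Ttr, and their sum was 37.9 to 43.5 CPM in WT and 30.7 to 36.2 CPM in KO libraries. Of 9 hippocampal field markers 2 were lower, Mpped1 and Bok. None of the markers in the table was at 0 in all libraries. The part of these cell types in the values of Acaa2 was not tested.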

How the data were processed

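The authors prepared directional single-end libraries, used FastQC for read quality, HISAT2 for alignment to the rn6 build and htseq-count in its intersection non-empty mode for counting. Versions, annotation and strand setting are not given in the sources used here. The deposited values are raw counts per gene symbol. All columns of counts were assigned to libraries by label, leaving 0 unassigned. A second deposited table, holding the authors' DESeq2 comparison (mean level, fold change, standard error, statistic and p-values), was not used.

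The tests ran in edgeR 4.0.16 under R 4.3.3. After filterByExpr (minimum count 10) and TMM scaling, a robust quasi-likelihood fit with genotype as the only term was tested, two-sided, and p-values were adjusted by Benjamini-Hochberg over all 11800 genes. SEs come from this fit. Log2 CPM used a prior count of 2. The procedure was run on simulated counts that had the same dispersion for all genes and no outlying library. These data differ in that WT replicate 3 stood apart, so that run does not show how the procedure performs on them. With 3 against 3 libraries no exact permutation p goes below 0.1.

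The 10 genes and the lists, written by hand, were chosen with earlier results of these data known. Named were the 10 genes, Fmr1, up to 4 genes per list with the smallest p, 5 tested neighbours on each side of Acaa2, the genes called and the 5 most like Acaa2. Genes named outside this rule, after their values were seen, were Acaa1a, Etfa, Etfb, Etfdh, Slc25a20, Acaa1b, Ppara, Ppard, Ppargc1a, Esrra, Pdk4, Pparg, Vnn1, Cd36, Prox1, Wfs1, Mpped1, Bok, Aqp4, Gjb6, Slc4a4 and Ttr. Names, gene order and promoters come from RefSeq (GRCr8), in which all 10 symbols matched. Alternatives were RLE or no scaling factors, DESeq2 1.42.0, no filter, a replicate block and leaving out each library. Some genes that this rule names are not reported here.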

Additional observations from a re-analysis of the deposited data

How the results depend on the processing

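The log2 fold change of Acaa2 ran from -0.99 to -0.81 over the 11 alternatives, always negative. The ratio of Acaa2 to the 8 other tested genes differed by -0.97 to -0.75. The count of 3 genes called was 9 with no filter, 37 with DESeq2, 17 with the replicate block and 1 to 256 with 1 library left out. The count of 1103 genes at an unadjusted p under 0.05 was 701 (without WT replicate 2) to 2095 (without WT replicate 3) and that of 9 other pathway genes 3 to 14 with 1 library left out. The single other tested enzyme at an unadjusted p under 0.05, Acads, was not so in DESeq2 or without WT replicate 2, KO replicate 2 or KO replicate 3. Among uncalled neighbours the log2 fold change crossed 0 with 1 library left out for Ctif (-0.063 to 0.148), Mapk4 (-0.082 to 0.0998) and Me2 (-0.066 to 0.040), and for Me2 also with no scaling factor (0.0066). Among the 8 other tested enzymes it crossed 0 for Acadl, Acadm, Acadvl and Hadhb, within -0.06 to 0.09. The cause was not tested. Same-numbered libraries did not deviate together (correlations of deviations 0.03, -0.01 and -0.08), so no pairing by number was seen. With 3 libraries per group this cannot exclude one. With the replicate block the log2 fold change of Acaa2 was -0.90, while the genes called rose from 3 to 17. Acaa2 rested on 146 to 423 reads per library. Echs1, with 1 to 4, was not compared.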
